A study of Mus musculus with 48 samples.

Results

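Cyfip2, Cadps and Nova1 are transcripts of neuronal regulators in which deamination of an adenosine changes an amino acid, and every position that the assay lists for these 3 genes is described here. By gene name, 67 of the 48715 listed positions belonged to them, namely 9 in Cyfip2, 32 in Cadps and 26 in Nova1. More than 100 reads covered 40 of the 67 positions in at least 1 library (4 in Cyfip2, 18 in Cadps and 18 in Nova1), and none of the 11 intronic positions was among those 40. Editing was measured by mmPCR-seq, a multiplex PCR of cDNA on a microfluidic chip that targets stretches holding known A-to-I sites, followed by sequencing. Because sequencers read inosine as guanosine, a level here is the percentage of covering reads that were edited, and it is given where over 100 reads covered the site. The mice were C57BL/6 animals aged 12 weeks, of the genotypes Adar1+/+ Ifih1-/- (called WT) and Adar1E861A/E861A Ifih1-/- (called E861A). The E861A allele encodes an ADAR1 protein without deaminase activity. Both genotypes lack Ifih1, which encodes the RNA sensor MDA5, so no group has a wild-type sensor. There were 3 libraries of each genotype from each of heart, kidney, liver, small intestine, thymus, spleen, bone marrow (BM) and whole brain, which makes 48 libraries. The 3 libraries of a group are independent biological replicates, but the sources do not say whether libraries of different tissues came from the same mice, which the comparisons between tissues do not take into account.

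ADAR1 and ADAR2 are the mammalian enzymes that turn adenosine into inosine in double-stranded RNA, and many recoding sites of neuronal transcripts are known substrates of ADAR2. CYFIP2 is a subunit of the WAVE regulatory complex, through which Rac signalling reaches actin, and it binds the fragile X protein FMRP. CADPS (CAPS1) primes dense-core and synaptic vesicles for calcium-triggered exocytosis. NOVA1 is a neuronal RNA-binding protein that controls alternative splicing.

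The bases around the main recoding site of each gene are shown because they place the edited base in its codon. They were read from mm9 and are written on the transcript strand, with the affected codon in capitals and the edited adenosine as base 13 of the 25 shown. The windows lie at chr11:46086133-46086157 for Cyfip2, chr14:13244084-13244108 for Cadps and chr12:47801309-47801333 for Nova1, all on the minus strand and each inside 1 coding exon.
Cyfip2 Lys->Glu: gccagatacattAAGaccagtgctc
Cadps Glu->Gly: ataaggtcaatGAGgagatgtatat
Nova1 Ser->Gly: tttgcattaggtAGCctggctgctg

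In the GENCODE vM1 annotation the Cyfip2 site at position 46086145 is the first base of codon 320 of 1253, in exon 10 of 31, and its editing turns AAG (Lys) into GAG (Glu). The next base, position 46086144, is another listed site of the same codon, where editing turns AAG into AGG (Arg). The Cadps site at position 13244096 is the second base of codon 1258 of 1361, in exon 27 of 29 of the longest coding model, and its editing turns GAG (Glu) into GGG (Gly). The Nova1 site at position 47801321 is the first base of codon 387 of 507, in the last of 5 exons, and its editing turns AGC (Ser) into GGC (Gly). A guanosine stands just before the Cadps site, and a thymidine (uridine in the RNA) just before those of Cyfip2 and Nova1. Of all positions read over 100 times in any library, 22.8% had a guanosine before the adenosine and 33.8% one after it. The base after the site was G in Cadps and Nova1 and A in Cyfip2.

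Coverage summed over positions was 1861831 to 11394093 per library, and 1949 to 6806 positions per library had over 100 reads. As a check of the brain label, 10 to 11 of 11 neuronal genes fixed as markers (among them Gria2, Htr2c and Kcna1) were read over 100 times at any position in the brain libraries, against 2 to 10 in libraries of the other tissues. The assay amplifies selected cDNA, so coverage is not an expression level. Reads carry no molecular identifiers, and the Wilson 95% intervals given below cover counting error only. A level of a whole tissue cannot tell fewer cells with edited transcripts apart from less editing in each cell.

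The Cyfip2 Lys-to-Glu site was edited in most brain reads of both genotypes. Its level in the WT brain was 74.4% (of 10364 reads), 80.2% (11721) and 86.0% (10093) in replicates 1, 2 and 3. In the E861A brain it was 78.7% (6152), 79.7% (6775) and 81.0% (5107). The 3 E861A values lay within the range of the 3 WT values. The WT mean was 80.2% ± 5.82 (SD, n = 3), and that of E861A was 79.8% ± 1.14 (SD, n = 3). The fitted change in the log2 ratio of edited to unedited reads, E861A against WT, was -0.07 ± 0.49 (SE), with an adjusted p of 0.973 in limma. On the untransformed scale the interval of the difference ran from -9.99 to 9.18 percentage points. In a ranking of nonsynonymous sites above 1% by their mean in brain, this site was at place 4 of 45 in WT and 6 of 42 in E861A.

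The adjacent Lys-to-Arg site of the same Cyfip2 codon was edited in few brain reads. Its level was 1.25%, 2.85% and 1.22% in the WT brain and 1.62%, 2.32% and 1.21% in the E861A brain, each from at least 5036 reads. The genotypes overlapped, with a log2 change of -0.0016 ± 0.66 (SE), a limma adjusted p of 0.999 and an untransformed interval of -2.58 to 2.46 percentage points. The other Cyfip2 positions read in brain gave 0.0414% to 0.532%, with a median of 0.203%. Those positions are the ones that did not exceed 1% in any group, so their lower values follow from how they were chosen.

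The Cadps Glu-to-Gly site was edited in 17.4% to 22.4% of brain reads. The WT brain had 20.6% (of 13281 reads), 21.6% (14456) and 22.4% (12730). In the E861A brain the levels were 17.4% (7561), 19.9% (8424) and 18.6% (6632). Each E861A value was below each WT value. The WT mean was 21.6% ± 0.906 (SD, n = 3) and the E861A mean 18.6% with an SD of 1.3, a difference of -2.96 percentage points (untransformed interval -19.1 to 13.2). In limma, which shares the spread between sites of like level, the log2 change was -0.26 ± 0.52 (SE) with an adjusted p of 0.838. The untransformed interval uses that shared spread too, and is wide beside the SDs of this site. The exact two-sided permutation test gave p = 0.1, the smallest that 3 against 3 libraries allow. The 17 other Cadps positions gave at most 0.509% in brain, with a median of 0.196%.

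The Nova1 Ser-to-Gly site differed more between brain libraries of a genotype than between the genotype means. WT brain replicate 1 had only 4 reads and gives no level. Replicate 2 had 1.06%, which rests on 2 edited reads (Wilson 95% interval 0.292 to 3.80) and replicate 3 had 21.1% of 1065 reads (18.8 to 23.7). The E861A brain libraries had 5.64% of 834, 28.4% of 1130 and 22.6% of 923 reads. The lowest and the highest libraries within a genotype had intervals that did not overlap, in WT and in E861A. WT had a mean of 11.1% ± 14.2 (SD, n = 2), while the E861A mean was 18.9% ± 11.8 (SD, n = 3). In the pooled reads the levels were 18.1% and 20.0%, since WT replicate 3 had most of the WT reads. The log2 change, in which libraries count equally, was 1.43 ± 1.46 (SE). That change was 0.89 with an offset of 0.05, and 0.18 in the quasi-binomial model, which weights by reads. The limma adjusted p of the main fit was 0.701, and the interval on the untransformed scale was -19.5 to 35.1 percentage points. Without E861A replicate 1 the difference of means was 14.4 percentage points in place of 7.8, and without E861A replicate 2 it was 3.04. The median of the 17 other Nova1 positions in brain was 0%, with a highest value of 0.909%.

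**Figure D1:**
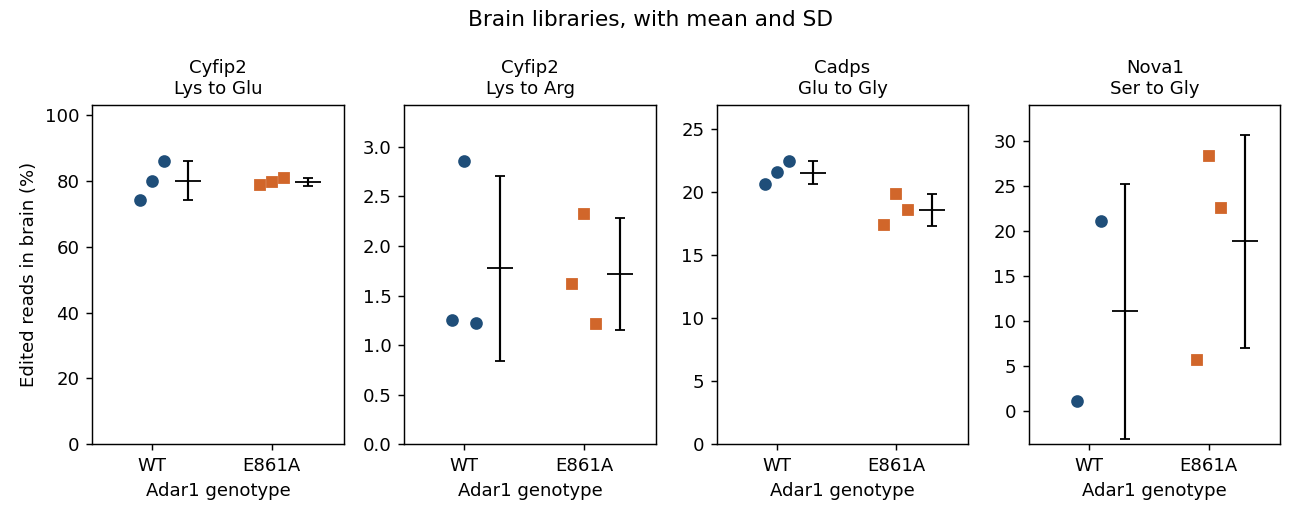
Editing levels in the brain libraries with over 100 reads (circles, WT; squares, E861A; y axis, percent of reads edited) at the 4 sites, each panel with its own scale, beside the mean and SD of each genotype in black. The 3 Cadps squares lie below the 3 circles, while the genotypes overlap at the other sites, and the Nova1 points run from 1.06% to 28.4%.

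Over all sites tested between the genotypes in brain, limma called 0 of 808 (0%), 56 had an unadjusted p under 0.05, and a quasi-binomial model of the reads called 1. By the study's criterion (at least 5 percentage points apart, with p below 0.1 in a one-way F test and no adjustment) 63 of the 808 passed, none of them a member. The Cadps difference of -2.96 percentage points was smaller than the 5 required. The 4 sites just described were the members among the 808. For other nonsynonymous sites 44 were tested in brain, 0 were called, and the median log2 change was 0.00089 with 22 lower in E861A. The untransformed interval of each of the 4 differences holds 0 and changes in both directions, so the comparisons do not show that the genotypes had the same level.

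Outside the brain the Cyfip2 Lys-to-Glu site was read in 41 of 42 libraries, and 14 of these were above 1%. Kidney and liver held most of them. The kidney libraries had 3.99%, 3.04% and 4.62% in WT and 0.934%, 2.94% and 2.67% in E861A, each from at least 5693 reads. Each WT kidney value was above each E861A value, the means being 3.89% ± 0.798 and 2.18% ± 1.09 (SD, n = 3 each). The fitted log2 change was -0.70 ± 0.54 (SE) with a limma adjusted p of 0.38, where 17.1% of the 532 sites tested in kidney were called. The exact permutation p was again 0.1. The 3 WT liver libraries had 5.24%, 0.122% and 28.2%. The E861A liver libraries had 8.50%, 1.97% and 9.26%. The liver genotypes overlapped, with a limma adjusted p of 0.965, against 9.75% of 677 sites called. Liver means fell by 4.61 percentage points from WT to E861A while the fitted log2 change was 0.08, so the sign depended on the scale. It also depended on single libraries, the difference of means being 3.89 percentage points without WT replicate 3 (log2 change 1.38) and -10.1 without WT replicate 2 (log2 change -1.21).

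In spleen, small intestine and heart single libraries carried the Cyfip2 signal. The WT spleen had 0.184%, 0.259% and 3.26%, against 0.195%, 0.210% and 0.0950% in E861A. WT small intestine had 2.42% (94 of 3892 reads), 96.1% (739 of 769) and 0% (0 of 1342 reads, which allows a level of up to 0.224%, that is 3 reads of the total). The E861A small intestine had 4 reads in replicate 1, and 0.0579% and 0.113% in the other 2 libraries. Heart was at 0.655%, 0.124% and 0.391% in WT and 0.0440%, 2.42% and 0.286% in E861A. BM and thymus stayed between 0.0657% and 0.446% in all 12 libraries. Those levels lie in the range of the other Cyfip2 positions outside the brain, 0% to 0.412%, except for 1 BM library of E861A at 0.446%. The limma adjusted p between genotypes was 0.458 in spleen, where 9.15% of 284 sites were called, and 0.559 in small intestine, where 0% of 413 sites were called.

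The tissues ordered by mean Cyfip2 Lys-to-Glu level were brain, small intestine, liver, kidney, spleen, heart, thymus and BM in WT. In E861A the order was brain, liver, kidney, heart, BM, spleen, thymus and small intestine. Each pair of neighbours in these orders overlapped in single libraries except brain and liver in E861A. The high place of WT small intestine came from its replicate 2, and its mean was 32.8% ± 54.8 (SD, n = 3). Single high libraries also raised the means of WT liver (replicate 3, 28.2%), WT spleen (replicate 3, 3.26%) and E861A heart (replicate 2, 2.42%).

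**Figure D2:**
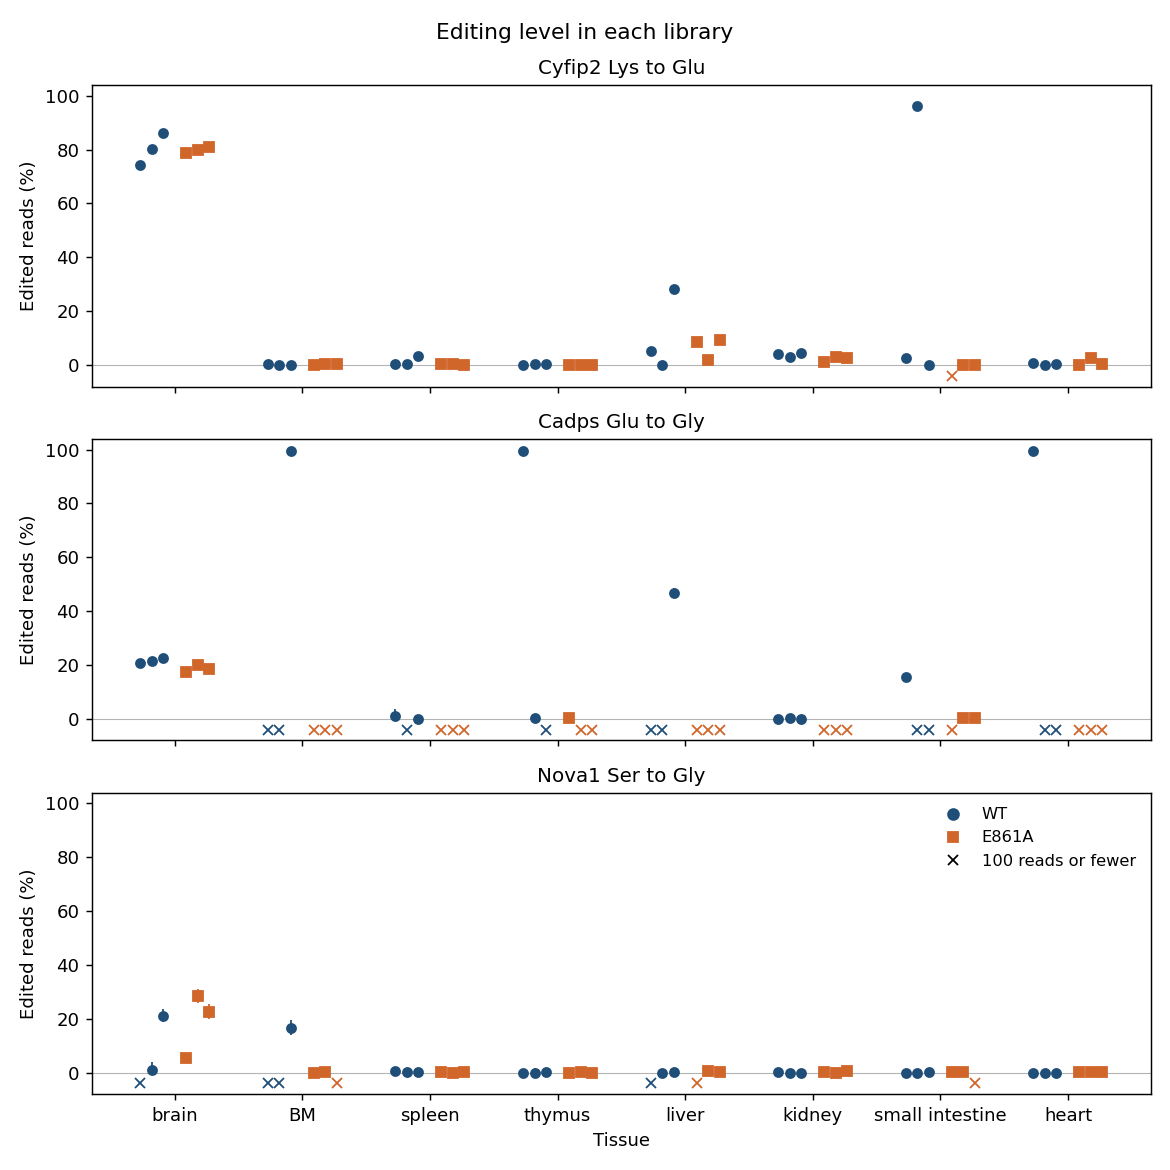
Editing level (y axis, percent of reads edited) in each of the 48 libraries by tissue at the Cyfip2 Lys-to-Glu, Cadps Glu-to-Gly and Nova1 Ser-to-Gly sites, with Wilson 95% intervals (circles, WT; squares, E861A; crosses under the zero line, 100 reads or fewer). Brain libraries of both genotypes stand above most others, and the single WT libraries at 96.1% (Cyfip2, small intestine) and 99.5% to 99.6% (Cadps; BM, thymus and heart) stand apart.

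Brain levels of Cyfip2 Lys-to-Glu were compared with those of each other tissue within a genotype. In WT 5 of 7 comparisons were called higher in brain, against BM, spleen, thymus, kidney and heart, with limma adjusted p-values of 0.00406 to 0.027 and log2 differences of 6.33 to 8.45. The 0.01 added to the edited and unedited fractions limits these log2 differences where the other tissue has a low level. On untransformed levels the calls against BM and heart were lost (limma adjusted p of 0.115 and 0.0589). The comparison with liver had an adjusted p of 0.0771 although no library overlapped (69.0 percentage points higher in brain). With small intestine the adjusted p was 0.438, and without small intestine replicate 2 of WT it was 0.102 with a difference of 79.0 percentage points. In E861A all 7 comparisons were called, with adjusted p-values of 8.68e-05 to 0.00401 and differences of 73.2 to 79.7 percentage points. The Lys-to-Arg site was called higher in brain in 0 of 7 comparisons in WT and in 1 of 7 in E861A (against spleen, limma adjusted p = 0.0392, and 0.0866 on untransformed levels). E861A liver replicate 1 had 1.51% at Lys-to-Arg (29 of 1921 reads), within the range of the E861A brain libraries. The brain mean of this site was 1.15 to 1.68 percentage points higher in these 14 comparisons. The 1% limit for testing was met through brain alone in all 14 of them, and for Lys-to-Glu in 3 of the 5 called in WT (BM, thymus and heart) and 5 of the 7 in E861A (all but liver and kidney), so there a higher brain level was a condition of the test. A fit over all 48 libraries, which shares the spread over all groups, called Lys-to-Glu against WT liver (limma adjusted p = 0.000632) and WT small intestine (0.00755) as well, and Lys-to-Arg in all 14 comparisons (3.9e-05 to 0.00332).

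Cadps Glu-to-Gly was seldom read outside the brain, and its levels there ran from 0% to 99.6%. Over 100 reads covered it in 11 of 21 WT and 3 of 21 E861A libraries of the other tissues. In WT kidney all 3 libraries were read, at 0% of 827 reads (which allows up to 0.363%), 0.245% of 817 and 0% of 400 (up to 0.75%). In WT spleen replicates 1 and 3 had 1.23% of 243 and 0.0928% of 1078 reads. WT thymus replicate 2 had 0.217% of 1845 reads, E861A thymus replicate 1 had 0.323% of 619, and E861A small intestine replicates 2 and 3 had 0.218% of 5051 and 0.244% of 4092.

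The remaining WT libraries were far above these values. Nearly every read was edited in BM replicate 3 (601 of 604 reads, 99.5%, Wilson 95% interval 98.5 to 99.8), heart replicate 1 (943 of 947, 99.6%, 98.9 to 99.8) and thymus replicate 1 (964 of 969, 99.5%, 98.8 to 99.8). Liver replicate 3 had 1300 of 2780 reads edited (46.8%, 44.9 to 48.6) and small intestine replicate 1 had 693 of 4489 (15.4%, 14.4 to 16.5). Levels above 95% were rare among edited sites in general, making up a median of 0.242% of the sites above 1% in a library outside the brain, with a highest share of 6.02%. The 3 libraries near 100% had 1.41% (BM), 1.25% (heart) and 0.239% (thymus) of their edited sites above 95%.

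Cadps in the brain could be compared with 3 other tissues in WT and 1 in E861A. It was called higher in WT brain than in spleen (limma adjusted p = 0.0124, 20.9 percentage points) and kidney (0.0134, 21.5 percentage points). In both comparisons, and in that with E861A small intestine, Cadps met the 1% limit through brain alone, so a higher brain level was built into its being tested. Both WT calls were lost on untransformed levels, where the limma adjusted p-values were 0.163 and 0.125. Against WT thymus, whose 2 libraries read were at 99.5% and 0.217%, brain minus thymus was -28.3 percentage points in the mean, with a limma adjusted p of 0.736. In E861A the brain was called higher than small intestine (limma adjusted p = 0.000709, 18.4 percentage points). In the fit over all 48 libraries the Cadps calls were lost, with limma adjusted p-values of 0.126 (WT spleen), 0.0771 (WT kidney) and 0.12 (E861A small intestine).

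**Figure D3:**
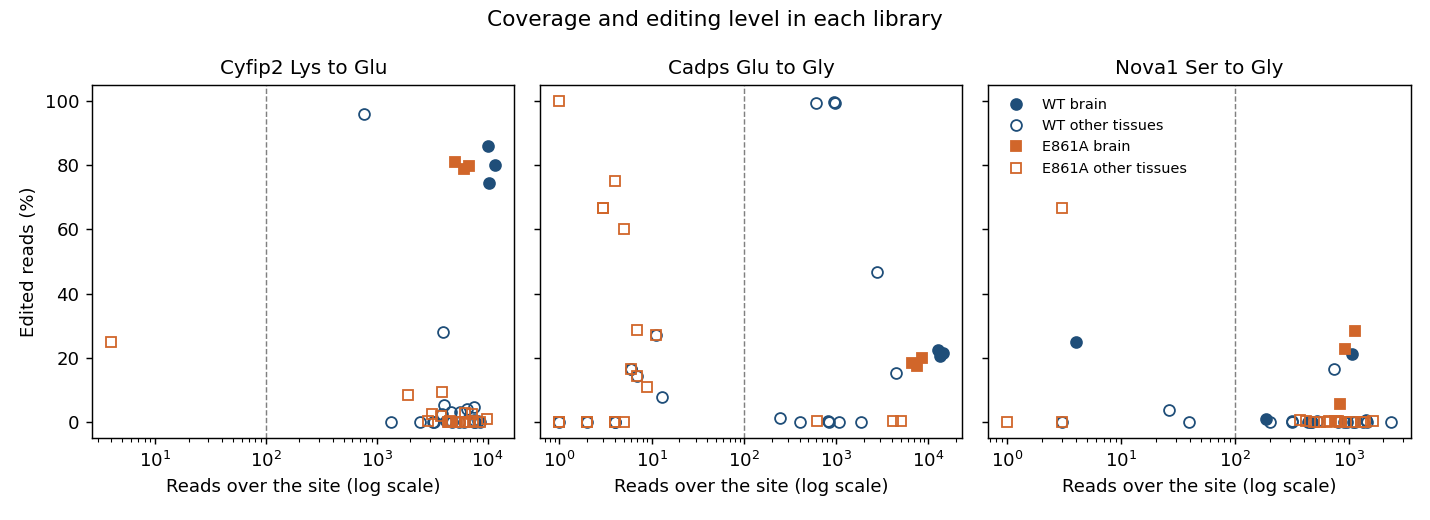
Editing level (y axis, percent of reads edited) against the reads covering the site (x axis, log scale) in each library with at least 1 read, for brain (filled) and other tissues (open) and for WT (circles) and E861A (squares), with a dashed line at 100 reads. The Cadps libraries at 99.5% and 99.6% had 604 to 969 reads, fewer than each brain library, and Cadps libraries left of the line have at most 13 reads.

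Nova1 Ser-to-Gly was above 1% in 1 of 36 libraries read outside the brain. This was WT BM replicate 3, with 121 of 729 reads edited (16.6%, Wilson 95% interval 14.1 to 19.5). The other WT BM libraries had 39 and 26 reads. E861A BM replicates 1 and 2 had 0% of 818 and 0.120% of 834 reads. The remaining libraries read lay between 0% and 0.573%, the highest in WT spleen replicate 1, and the 3 WT heart libraries had no edited read among 897, 1080 and 476 reads, which allows levels of up to 0.334%, 0.278% and 0.63%. Among tissues with at least 2 libraries read, which leaves out WT BM, the brain mean came first in both genotypes, with no overlap with the next tissue (spleen in WT, liver in E861A), and all neighbours after that overlapped. The single WT BM value lay above the WT brain mean of 11.1% and between its 2 libraries.

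In E861A the Nova1 site was called higher in brain in 7 of 7 comparisons, with limma adjusted p-values of 0.00577 (thymus) to 0.0442 (liver) and differences of 18.5 to 18.8 percentage points. In each of these comparisons the site met the 1% limit for testing through brain alone, so a difference was built into its being tested. On untransformed levels all 7 calls were lost, with limma adjusted p-values of 0.101 to 0.232. In WT, where 2 brain libraries were read, none of 6 comparisons was called, with differences of 10.8 to 11.1 percentage points and limma adjusted p-values of 0.227 to 0.397. The fit over 48 libraries called all 6 (limma adjusted p of 0.000307 to 0.00189), and in these too the limit was met through brain alone. The brain libraries lay above the other tissue's in each of these 13 comparisons. These comparisons share the brain libraries of their genotype, leave out WT BM and all met the limit through brain alone. The share of all tested sites set apart in this way was not counted. Whether the tissue difference itself depended on genotype is given below.

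Over the 3 genes limma called 7 of 23 comparisons of brain with another tissue in WT and 16 of 24 in E861A, all higher in brain. Of these comparisons, 18 of 23 in WT and 20 of 24 in E861A met the 1% limit through brain alone, among them 5 of the 7 and 14 of the 16 called, so the counts describe the calls and are no measure of how often members differ. The share of all tested sites called higher in WT brain was 7.01% against BM, 18.9% against spleen, 12.4% against thymus, 1.11% against liver, 11.3% against kidney, 6.83% against small intestine and 5.03% against heart. In E861A these shares were 31.5%, 34.3%, 33.4%, 20.2%, 26.2%, 33.6% and 27.5% in the same order of tissues. For nonsynonymous sites of other genes the counts called higher in brain were 2 of 30 (small intestine) to 8 of 26 (thymus) in WT and 7 of 27 (heart) to 15 of 23 (spleen and thymus) in E861A. The sites in these comparisons share the brain libraries of their genotype and are not independent.

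Several of these calls were lost in a fit without 1 library. In WT the calls of Cyfip2 and Cadps against kidney had limma adjusted p-values of 0.0836 to 0.124 when any 1 of the 3 kidney libraries was left out. Their differences changed little there, being 75.9 to 76.7 (Cyfip2 Lys-to-Glu) and 21.4 to 21.6 percentage points (Cadps). The WT call of Cyfip2 Lys-to-Glu against BM had 0.0563 without BM replicate 2, and that against thymus had 0.0821 and 0.0672 without thymus replicates 1 and 2. Against heart it had 0.11 and 0.158 without heart replicates 2 and 3, and 0.0604 and 0.0659 without brain replicates 2 and 3. Its call against spleen kept an adjusted p under 0.05 whichever library was left out. With the replicate number as a block in the fit, that call had a limma adjusted p of 0.0594. In E861A the Nova1 call against liver had 0.0836 and 0.105 without brain replicates 2 and 3, and 0.0515 without liver replicate 1, which had 1 read there and so left the difference at 18.5 percentage points, and the calls against BM and small intestine had 0.0528 and 0.0609 without brain replicate 3. The Lys-to-Arg call against spleen in E861A had 0.178 to 0.186 when any 1 spleen library was left out, with differences of 1.58 to 1.63 percentage points. Leaving out 1 E861A brain library brought further Lys-to-Arg calls, against kidney (0.0369 to 0.0433, any of the 3 left out), thymus (0.035 to 0.0493, any of the 3) and BM (0.0451, replicate 3). Where a group had only 2 libraries read, as for Cadps in WT spleen and E861A small intestine, no fit without 1 of them could be made. The differences remained higher in brain in each of these fits.

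Between the genotypes limma called 0 of 9 tests of member sites in 5 tissues, 0 had an unadjusted p under 0.05, and the quasi-binomial model called 0. These 9 were the 4 brain sites, Cyfip2 Lys-to-Glu in 4 other tissues, and Nova1 Gln-to-Arg in small intestine. The last, at position 47801137, had 3.51% of 1224 and 0.139% of 722 reads in 2 E861A libraries of small intestine, and 0%, 0.107% and 0.0786% in WT. Its limma adjusted p was 0.559.

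The difference between genotypes in another tissue minus that in brain was tested for 21 combinations of a member site and a tissue, and limma called 0, with 0 at an unadjusted p under 0.05 and 0 by the quasi-binomial model. Of all sites tested this interaction was called for 2.99% with BM, 1.77% with spleen, 0.454% with thymus, 1.41% with liver, 1.76% with kidney, 0.492% with small intestine and 0.231% with heart. For Cyfip2 Lys-to-Glu the estimates ran from -32.3 (small intestine) to 0.931 (heart) percentage points, with limma adjusted p-values of 0.653 to 0.992. The small intestine estimate rested on WT replicate 2 at 96.1%, without which the genotype difference in that tissue went from -32.8 to -1.12 percentage points. For Nova1 Ser-to-Gly the estimates ran from -8.0 to -7.52 percentage points in 6 tissues, with limma adjusted p-values of 0.632 to 0.794. Single libraries of those tissues had at most 0.573% in either genotype. These estimates therefore largely repeat the brain difference of 7.80 percentage points with its sign turned. For Cyfip2 Lys-to-Arg, with pooled levels under 1% outside the brain, they ran from -0.0717 to 0.433 percentage points in 7 tissues. At such levels these combinations could hardly show whether a genotype difference depends on tissue. Cadps had no tissue in which both genotypes were read in enough libraries besides the brain.

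A level above 1% at 1 or more of the 3 main sites was present in 18 of 42 libraries outside the brain, 12 of WT and 6 of E861A. The genotypes were not read alike, as Cadps had over 100 reads in 11 of 21 WT and 3 of 21 E861A libraries. The 12 and 6 therefore do not compare the genotypes. At Cyfip2 Lys-to-Glu, read in 21 WT and 20 E861A libraries, 8 and 6 were above 1%. In 3 of the 18 libraries 2 sites were above 1% together. WT liver replicate 3 had Cyfip2 at 28.2% and Cadps at 46.8%, with Nova1 at 0.316%. WT small intestine replicate 1 had Cyfip2 at 2.42% and Cadps at 15.4%, with Nova1 at 0%. WT BM replicate 3 had Cadps at 99.5% and Nova1 at 16.6%, with Cyfip2 at 0.180%. Neuronal marker genes read numbered 7, 10 and 8 of 11 in these 3 libraries and 2 to 10 over all 18, and their part in the editing levels was not tested.

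Beyond the 4 sites described in brain, 5 of the 67 positions exceeded 1% in the pooled reads of some group. Nova1 Gln-to-Arg and the synonymous Cadps position 13206305 did so in a group with at least 2 libraries read, both in E861A small intestine. Of the 2 libraries read there at the Cadps position, replicate 2 had 1.81% (26 of 1433 reads) and replicate 3 had 0 of 1020. Cadps Met-to-Val (13209127), Cadps Lys-to-Arg (13250547) and Nova1 Asn-to-Ser (47801491) did so only where 1 library was read. The other 31 positions read were at or below 1% in the pooled reads of each group.

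The editing pattern of each main site over libraries was set beside that of other edited sites, as a description. For Cyfip2 Lys-to-Glu, among 363 sites of other genes with at least 40 libraries in common and a mean level above 5% in WT brain, the highest Pearson correlations of level were with Tmem63b Gln-to-Arg (r = 0.98, Spearman's rho 0.56, 43 libraries), a Camk4 3′ UTR site (r = 0.97, rho 0.40, 42 libraries) and a Snhg11 site (r = 0.94, rho 0.44, 43 libraries). The median over all 363, which were chosen for editing in brain, was 0.49. The Tmem63b site had mean levels of 60.3% and 62.8% in WT and E861A brain. For Nova1, among 247 sites chosen in the same way, the highest were an intronic Taz site (r = 0.91, rho 0.19, 41 libraries), a Cdk7 3′ UTR site (r = 0.88, 40 libraries) and an Ocel1 3′ UTR site (r = 0.86, 41 libraries). The points of each correlation come from the same 8 tissues, 6 libraries from brain among them, and share library and depth. Cadps was read in 20 libraries, too few for this comparison.

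Genes that work with these proteins gave little to compare. Of 12 genes of the WAVE complex and FMRP list, 8 had listed positions (46 in all) and 0 were read over 100 times in any library. Of 11 exocytosis genes, 8 had positions (76) and 0 were read. Of 7 genes listed around Nova, 5 had positions (33) and 1, Nova2, was read at 5 positions, of which 0 were above 1% in any group.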

How the data were processed

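The authors amplified known A-to-I loci from cDNA of 8 tissues (the methods' list of tissues leaves out liver, which the labels give) and deposited 1 table per library with counts of covering and of edited reads at 48715 positions. The deposited level is a fraction of the 2 counts, without normalization, and was recomputed from them. STAR, SAMtools and mm9 are named in the submitters' processing notes, and their parameters are not given in the sources used here. Joined tables of all libraries repeat the levels and were not used.

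Tested sites had coverage over 100 in 2 or 3 libraries of both groups and a pooled level above 0.01 in a group. The tool was limma 3.58.1 under R 4.3.3 (lmFit, then eBayes with its trend option). It was run over all such sites, on log2 odds of the level with 0.01 added to the edited and to the unedited fraction. Benjamini-Hochberg adjusted p-values under 0.05 were called. Genotypes were compared over the 6 libraries of a tissue, brain with another tissue over the 6 libraries of a genotype, and the interaction over 12 libraries. Libraries not covered at a site were missing values in its fit. Wilson 95% intervals, exact permutation tests and sequence windows came from Python 3.11.15 (scipy 1.17.1, numpy 2.4.6, pandas 2.3.3, and matplotlib 3.10.9 for figures). The fits were tested on simulated levels.

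The members, gene lists and tests were chosen with earlier results of these data known. Sites named are those above 0.01 in any group. The rule as first written also named nonsynonymous sites below it, which are given only as counts and a range. The sites most alike were those of highest Pearson correlation among sites above 5% in WT brain with at least 40 libraries shared. Alternatives were other coverage and editing limits, offsets, the untransformed level, no trend, a quasi-binomial model, the study's criterion (at least 5 percentage points apart, and p below 0.1 by a one-way F test), a fit over 48 libraries, a replicate block, and left-out libraries.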

Additional observations from a re-analysis of the deposited data

Results flagged for a closer look

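The levels listed here entered no comparison between groups, since at that site the group had no other library with over 100 reads or the library's own coverage was lower. The same libraries were used at other sites. Each level is above the level that a count of 0 allows (3 reads of the coverage). Nova1 Ser-to-Gly was at 16.6% in WT BM replicate 3 (121 of 729 reads, against a limit of 0.412%). Cadps Glu-to-Gly was at 99.5% in WT BM replicate 3 (601 of 604, limit 0.497%), at 99.6% in WT heart replicate 1 (943 of 947, limit 0.317%), at 46.8% in WT liver replicate 3 (1300 of 2780, limit 0.108%) and at 15.4% in WT small intestine replicate 1 (693 of 4489, limit 0.0668%).

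The 28 libraries outside the brain in which the Cadps Glu-to-Gly position had 100 reads or fewer had at most 13 reads each. Together 26 of their 129 reads were edited, which is 20.2% (Wilson 95% interval 14.1 to 27.9, limit 2.33%). In WT this was 7 of 54 reads (13.0%) and in E861A 19 of 75 (25.3%). The 17 other Cadps positions in the same libraries had 4 edited of 1042 reads (0.384%, 0.149 to 0.983). The intervals treat reads as independent molecules.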

How the results depend on the processing

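No member site was called between genotypes, and no interaction was called, under any alternative, including the replicate block (0 and 0) and the study's criterion (0 between genotypes, against 63 of 808 sites in brain, 95 of 677 in liver, 95 of 532 in kidney, 24 of 284 in spleen and 7 of 413 in small intestine). In brain the difference at Cyfip2 Lys-to-Glu was -3.31 to 2.52 percentage points with 1 replicate left out, at Cadps -3.59 to -2.33 and at Nova1 3.04 to 14.4, the adjusted p over the alternatives being 0.692 to 0.996, 0.403 to 0.951 and 0.0825 to 0.944 (limma, except that 0.403 and 0.944 are from the quasi-binomial model). The Cyfip2 difference of means was positive without WT replicate 3 (2.52) and without E861A replicate 1 (0.149), the log2 change only in the first. The sign of the log2 change at Cyfip2 Lys-to-Arg in brain turned with an offset of 0.001 (difference of means -0.0577), and with 1 replicate left out that difference was -0.36 to 0.482. Cyfip2 in liver had a negative change with an offset of 0.05, untransformed levels, the quasi-binomial model and the study's criterion (difference of means -4.61), and -10.1 to 3.89 with 1 replicate left out.

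Counts of calls for brain against other tissues moved more. The 7 calls in WT became 3 on untransformed levels, 20 in the fit over 48 libraries, which pools the spread, and 0 with the replicate block, under which 0 of all 688 to 739 sites were called in each of the 7 comparisons, and 0 to 7 with a replicate left out (in both tissues as planned, or, added after seeing the data, in 1 group). Leaving replicate 1, 2 or 3 out of both tissues gave 3, 0 and 2. The 16 in E861A became 8 on untransformed levels, 21 in the fit over 48 libraries and 12 with the replicate block, and ranged from 5 to 18 with a replicate left out (13, 7 and 5 without replicate 1, 2 and 3 in both tissues). Over all sites, the replicate block in E861A called 42 of 763 (liver) to 230 of 809 (thymus). The shares of all sites called on untransformed levels and in the fit over 48 libraries are not given here. Counts of calls under those settings, here and above, describe the member sites only. In no comparison did all 3 same-numbered pairs correlate above 0.1, so the numbers were not used as pairs. Whether a number marks the same mouse in several tissues is not given in the sources used here. Why the calls moved was not tested, apart from the fewer libraries of the left-out fits.

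Coverage limits Nova1 in WT brain and Cadps outside the brain.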
